A study of Mus musculus with 16 samples.

Results

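The genes described here are 32 genes of the endoplasmic reticulum (ER): chaperones, protein-folding enzymes, degradation factors and the sensors of the unfolded protein response. They were chosen by name from the 55401 genes of a count table, and all 32 had a row there. The cells were MC38, a mouse colon adenocarcinoma line grown in DMEM with serum. Cells with the genotype label WT, tagged gNC in the sample titles, were compared with cells labelled Ythdf2-KO, tagged gY2; no treatment or time is labelled for either. The sources used here do not say whether the knockout cells were 1 clone or a pool. Each genotype had 3 input libraries of fragmented polyadenylated RNA with gene counts and 3 libraries of RNA enriched by an antibody to N6-methyladenosine (m6A). Another 2 libraries of WT cells came from RNA immunoprecipitation (RIP) with an antibody against YTHDF2, beside 2 RIP inputs. The labels do not say that replicates came from separate cultures; p-values below therefore reflect library-to-library spread, possibly technical.

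YTHDF2 is a cytoplasmic protein that binds m6A on mRNA and speeds the decay of the transcripts it binds. Proteins that enter the ER are folded there by Hsp70 and Hsp90 type chaperones, by lectin chaperones that recognise their sugars and by disulfide and prolyl isomerases, and those that fail are returned to the cytosol for destruction (ER-associated degradation). When unfolded proteins accumulate, the membrane sensors ATF6, IRE1 (gene Ern1) and PERK (gene Eif2ak3) start the unfolded protein response: cleaved ATF6 and the transcription factor XBP1, whose mRNA is spliced by IRE1, raise transcription of chaperone and degradation genes, and PERK slows translation.

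Total counts per input library ran from 45441281 to 50959555. Levels below are CPM, counts scaled to a common library size with TMM factors, and 3 counts, which a count of 0 still allows, correspond to 0.0582 to 0.0652 CPM for counting error only. Ythdf2 did not differ in whole-gene reads (61.3 ± 6.63 CPM in WT and 63.1 ± 4.27 CPM in the other group, SD, n = 3; log2 fold change 0.04, edgeR adjusted p = 0.809). Such a count includes exons outside an edited site and does not check the knockout, so the libraries are called KO-labelled and each direction rests on the labels. In a principal component analysis, KO-labelled replicate 1 fell between WT and its own group along the first axis (-10.4, against -39.2 to -38.6 for WT and 63.2 to 64.1 for KO-labelled replicates 2 and 3), and results are therefore given with and without it. Of 11 colon epithelial markers, Krt18, Epcam and Cldn7 had no read in any library, and the 11 summed to at most 0.914 CPM. Of 19 markers listed as leukocyte and endothelial, which include the red blood cell globin gene Hba-a1, Cd8a and Adgre1 had no read. Of these 19, 7 could be tested and 1 of them, Cd3d, was lower. Of 11 fibroblast markers, 9 could be tested and 1, Dcn, was lower; their summed level was 2120 to 2680 CPM in WT and 1505 to 2644 CPM in KO-labelled libraries, mostly Col3a1. Without KO-labelled replicate 1 more of these markers passed. Of the 9 fibroblast markers 7 were lower, among them Col1a2 (-4.39 on the log2 scale) and Col3a1 (-0.65), and 1, Pdgfra, was higher (0.36). Of the markers on the leukocyte and endothelial list 3 were lower (the globin gene Hba-a1 -3.83, Cd3d -1.87 and Lyz2 -0.85) and 2 higher (Cdh5 1.34 and Cd68 0.83). The part of these markers in the results below was not tested, and in these bulk libraries fewer cells of a kind and less RNA per cell cannot be told apart.

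Of the 18 chaperone and folding genes, 10 were higher in the KO-labelled cells, among them Hspa5, Sdf2l1 and Calr; none of the other 14 genes passed, and the difference between these classes was not tested. All 32 genes together gave 10 called higher by edgeR's quasi-likelihood test (adjusted p below 0.05 over 18969 tested genes) and none lower; among all tested genes 2.99% were called higher and 1.54% lower. At an unadjusted edgeR p below 0.05, 18 were above WT and 1 below, against 16.9% and 12.6% of all tested genes. DESeq2 called 15 higher and none lower, against 11.8% and 7.1%. The median log2 fold change of the 32 was 0.28, against -0.01 over all tested genes. In 16 genes every KO-labelled library was above every WT library, which held for 17.7% of tested genes. In 2 genes, Canx and Sec24d, every KO-labelled library was below, which held for 16.2% of tested genes. Together the 32 genes took 0.848% to 0.945% of all counts in WT libraries and 1.12% in KO-labelled replicate 1, with more in replicates 2 and 3. The count changed with the libraries used: it was 17 when KO-labelled replicate 1 was left out (19.3% of all genes tested in that fit were higher and 16.1% lower), 5 when WT replicate 1 was (0.271% higher and 0.205% lower), and 0 without WT replicate 2, WT replicate 3, KO-labelled replicate 2 or KO-labelled replicate 3. In the fits that gave 0, 15 to 16 were above WT and none below at an unadjusted edgeR p below 0.05. Of all genes tested in those fits, 4011 of 19733, 3512 of 19469, 3596 of 19592 and 3457 of 19628 passed, both directions together. Over the 6 fits that left out 1 library, the lowest number of genes called in the whole table was 0 in each direction. In each of these 6 fits the 10 called genes kept a fold change above 0 (lowest 0.38 on the log2 scale). That sign was set in advance, because in all 10 every KO-labelled library was above every WT library.

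**Figure D1:**
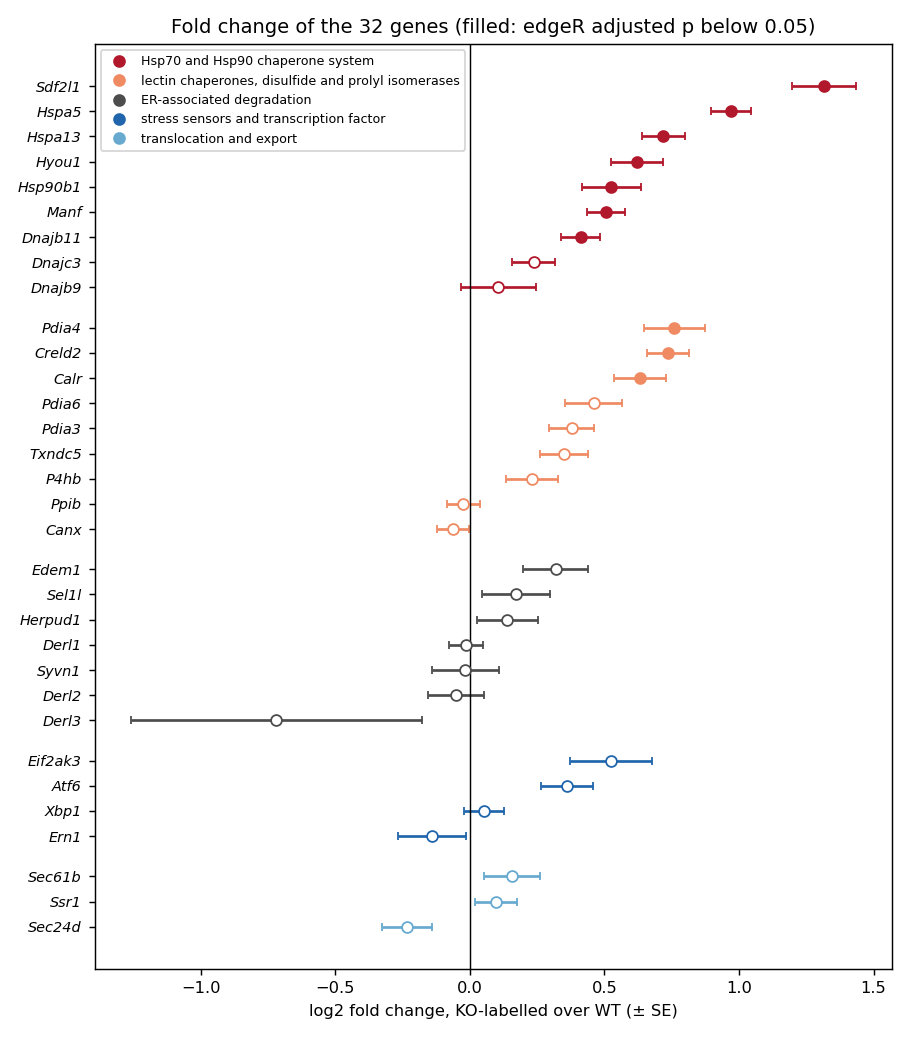
Log2 fold change (x axis, KO-labelled over WT, n = 3 libraries a group, bars are SE) of each of the 32 genes, grouped and coloured by role; filled points have an edgeR adjusted p below 0.05. The 10 filled points all lie among the chaperones and folding enzymes, with Sdf2l1 at 1.32 and Hspa5 at 0.97.

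The Hsp70 and Hsp90 system held 7 of the 10 calls. Hspa5 (BiP, the central ER Hsp70; ENSMUSG00000026864.13, mm10 chromosome 2, 34771970 to 34777547, plus strand) stood at 1028, 983 and 978 CPM in WT and at 1792, 2022 and 2045 CPM in KO-labelled libraries. The groups did not overlap, and KO-labelled replicate 1 already lay far above WT (log2 fold change 0.97, SE 0.07, edgeR adjusted p = 0.00822). Sdf2l1 (ENSMUSG00000022769.9, chromosome 16, 17130138 to 17132383, minus strand), which works in a complex with the cochaperone encoded by Dnajb11, measured 33.3, 29.3 and 27.5 CPM in WT and 64.9, 83.3 and 76.3 CPM in KO-labelled cells. It had the largest fold change of the 32 (1.32, SE 0.12, edgeR adjusted p = 0.0101). Dnajb11 itself rose from 119 ± 4.23 to 158 ± 8.15 CPM (SD, n = 3; 0.41, SE 0.07). Hyou1, a large Hsp70-related protein that helps BiP exchange nucleotide, went from 144, 125 and 119 CPM to 185, 197 and 215 CPM (0.62, SE 0.10). Hspa13, a microsomal Hsp70-like ATPase, measured 55.3, 47.9 and 49.1 CPM in WT and 81.5, 85.0 and 84.3 CPM in KO-labelled cells (0.72, SE 0.08), so its KO-labelled libraries were close together, replicate 1 included. Hsp90b1 (GRP94, the ER Hsp90) measured 1331, 1111 and 1077 CPM in WT and 1499, 1813 and 1755 CPM in KO-labelled cells; WT replicate 1 was the highest WT library and KO-labelled replicate 1 the lowest of its group, with no overlap (0.53, SE 0.11, edgeR adjusted p = 0.0446). Manf, a secreted protein that binds BiP, rose from 183, 194 and 194 CPM to 259.6, 283 and 268 CPM (0.51, SE 0.07). Reads of Hsp90b1, Manf and Pdia4 may be shared with overlapping annotated genes on their own strand, and those of Hsp90b1 and Manf also with genes on the other strand, since the sources used here do not state the strand setting of the counting; the same holds for the other strand of Pdia3, Pdia6, Dnajb9, Syvn1, Derl2, Eif2ak3, Txndc5 and Ppib.

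The remaining genes of this system, both cochaperones of BiP, did not pass. Dnajb9, in other systems a target of XBP1, stood at 16.6, 21.2 and 18.7 CPM in WT and 23.0, 20.0 and 17.7 CPM in KO-labelled cells, with overlapping groups (0.11, SE 0.14). Dnajc3 measured 66.7, 64.7 and 64.4 CPM in WT and 83.9, 75.8 and 71.2 CPM in KO-labelled cells (0.24, SE 0.08, edgeR adjusted p = 0.106). Its groups did not overlap, and its highest value was in KO-labelled replicate 1.

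**Figure D2:**
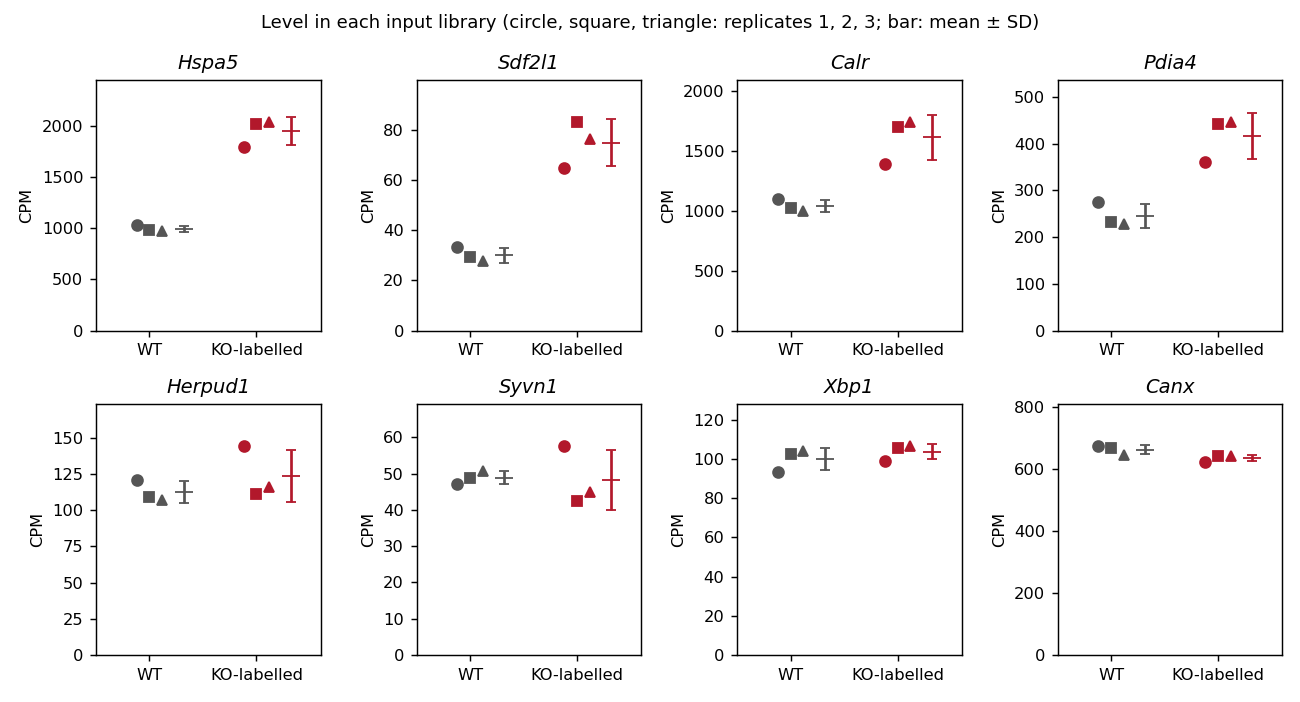
CPM (y axis, from 0) of 8 of the 32 genes in each input library, with WT in grey and KO-labelled in red; circles, squares and triangles are replicates 1, 2 and 3, and the bar gives mean and SD (n = 3). Hspa5, Sdf2l1, Calr and Pdia4 show separate groups, Herpud1 and Syvn1 are highest in KO-labelled replicate 1, and Xbp1 has overlapping groups.

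Among the lectin chaperones and isomerases, 3 of 9 genes rose: Calr, Pdia4 and Creld2. Calr, which encodes the soluble lectin chaperone calreticulin, stood at 1097, 1026 and 1002 CPM in WT and 1397, 1702 and 1748 CPM in KO-labelled cells (0.63, SE 0.10, edgeR adjusted p = 0.0293). Canx, which encodes its membrane-bound relative calnexin, stood at 674, 667 and 646 CPM in WT and 623, 641 and 640 CPM in KO-labelled cells. Its groups did not overlap, but the difference was small and did not pass (-0.06, SE 0.06, edgeR adjusted p = 0.522). The disulfide isomerase gene Pdia4 rose from 275, 234 and 229 CPM to 361, 441 and 448 CPM (0.76, SE 0.11), and Creld2, an ER protein that itself responds to ER stress, from 73.2, 71.1 and 71.2 CPM to 108, 127 and 124 CPM (0.74, SE 0.08). Pdia3, which encodes the isomerase that works with calreticulin and calnexin, measured 753, 706 and 672 CPM in WT and 836, 971 and 961 CPM in KO-labelled cells. It lay just outside the threshold (0.38, SE 0.08, edgeR adjusted p = 0.0503), as did Pdia6 (643 ± 44.4 and 884 ± 113 CPM, SD, n = 3; 0.46, SE 0.11, edgeR adjusted p = 0.0543). Both were called by DESeq2 and without KO-labelled replicate 1, as was the isomerase gene Txndc5 (184 ± 9.31 and 234 ± 22.4 CPM; 0.35, SE 0.09, edgeR adjusted p = 0.0645). P4hb, which encodes the classical protein disulfide isomerase, had its KO-labelled replicate 1 (617 CPM) inside the WT range (590 to 640 CPM) and its replicates 2 and 3 at 757 and 762 CPM (0.23, SE 0.10). Without KO-labelled replicate 1, P4hb was called higher (0.33, edgeR adjusted p = 0.00959). Ppib, the ER prolyl isomerase cyclophilin B, measured 442 ± 7.99 and 435 ± 13.6 CPM (-0.02, SE 0.06), so genes of this class differed among themselves.

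None of the 7 degradation genes was called by edgeR, where 2.99% of all tested genes were called higher and 1.54% lower. At such shares 7 genes are too few for a lack of calls to set the class apart. Of the 7, 3 had fold changes above 0, and their median log2 fold change was -0.01. At an unadjusted edgeR p below 0.05 Edem1 alone passed, above WT, against 16.9% of all tested genes above and 12.6% below. DESeq2 called none, against 11.8% higher and 7.1% lower. Herpud1, a membrane protein of the degradation complex, stood at 121, 109 and 107 CPM in WT and 144, 111 and 116 CPM in KO-labelled cells (0.14, SE 0.11). Syvn1, which encodes the ubiquitin ligase HRD1, measured 47.1, 48.8 and 50.6 CPM in WT and 57.6, 42.3 and 44.8 CPM in KO-labelled cells (-0.02, SE 0.12). Its partner Sel1l measured 156, 124 and 127 CPM and 176, 139 and 144 CPM (0.17, SE 0.13). In all 3 genes the highest of the 6 libraries was KO-labelled replicate 1, and for Syvn1 replicates 2 and 3 lay below all WT libraries. Edem1, which encodes a lectin that hands misfolded glycoproteins to degradation, had another order: 155, 141 and 130 CPM in WT, 149 CPM in KO-labelled replicate 1 and 196 and 187 CPM in replicates 2 and 3 (0.32, SE 0.12, edgeR adjusted p = 0.134). Without KO-labelled replicate 1 it was called higher (edgeR adjusted p = 0.00662). The derlin genes Derl1 (95.6 ± 0.357 and 94.7 ± 3.66 CPM) and Derl2 (52.4 ± 4.33 and 50.6 ± 5.03 CPM) had overlapping groups, and Derl3 was near the detection limit, at 0.152 to 0.408 CPM in WT and 0.0971 to 0.224 CPM in KO-labelled cells.

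The sensors did not pass either, and they differed in pattern. Eif2ak3 (PERK) stood at 34.9, 34.6 and 32.1 CPM in WT and 37.3, 52.7 and 55.8 CPM in KO-labelled cells (0.52, SE 0.15, edgeR adjusted p = 0.0801). Atf6 stood at 111, 101 and 94.5 CPM in WT and 117, 138 and 138 CPM in KO-labelled cells (0.36, SE 0.10, edgeR adjusted p = 0.0712). Neither gene's groups overlapped, KO-labelled replicate 1 was the library nearest to WT in both, and both were called by DESeq2 and without that library. Ern1 (IRE1) measured 53.5, 44.0 and 38.4 CPM in WT and 40.0, 42.9 and 40.4 CPM in KO-labelled cells, all within the WT range (-0.14, SE 0.13). Xbp1 measured 93.6, 103 and 104 CPM and 99.3, 106 and 107 CPM (0.05, SE 0.07). A gene count does not separate its spliced from its unspliced mRNA. The translocon gene Sec61b (98.9 ± 5.18 and 110 ± 14.3 CPM), its associated Ssr1 (175 ± 5.98 and 187 ± 13.1 CPM) and Sec24d, a coat subunit of vesicles leaving the ER (173 ± 19.1 and 147 ± 3.28 CPM; -0.23, SE 0.09, edgeR adjusted p = 0.146), did not pass.

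**Figure D3:**
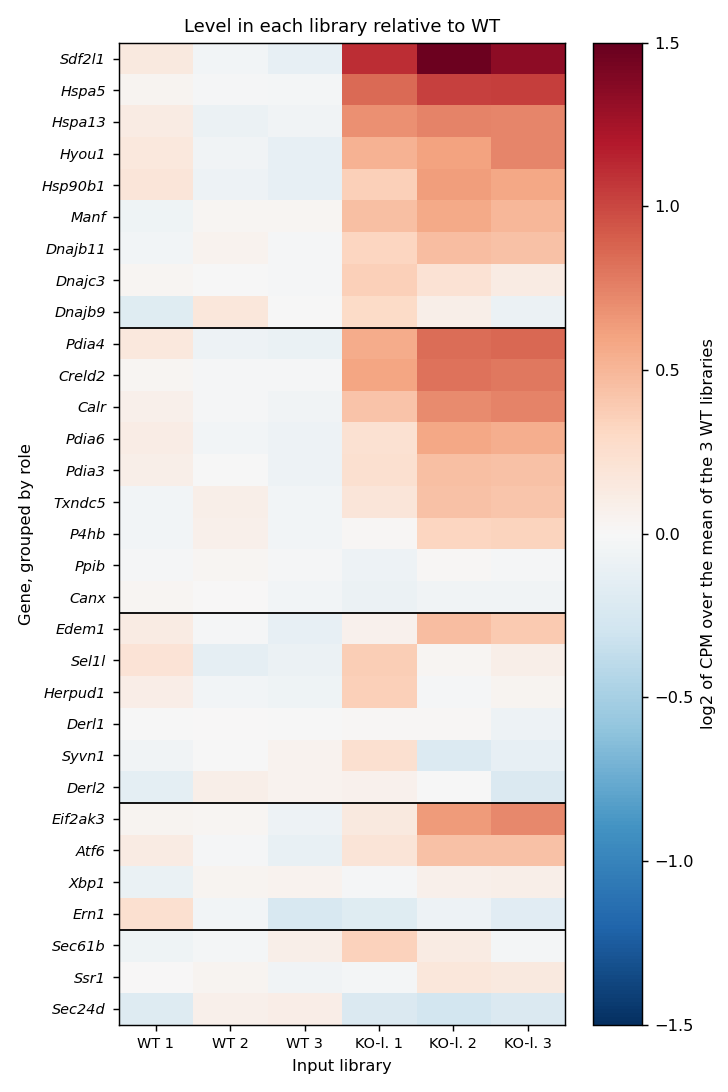
Level in each of the 6 input libraries as the log2 of CPM over the mean of the 3 WT libraries (colour), for 31 of the 32 genes grouped by role (lines); Derl3 is left out because it was near the detection limit. KO-labelled replicate 1 (KO-l. 1) is red for the chaperones at the top, and is the reddest library for Sel1l, Herpud1, Syvn1 and Sec61b.

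KO-labelled replicate 1 was thus not intermediate in the same way for all genes. For the 10 called genes, the log2 rise over the WT mean in that library was 58.1% (Calr) to 92.5% (Hspa13) of the rise in replicates 2 and 3, with a median of 75.7%; over all 568 genes called higher the median was 63.6%. Both figures describe genes that were chosen by the test on the same libraries. In 7 of the 32 genes (Dnajb9, Dnajc3, Herpud1, Syvn1, Sel1l, Derl1 and Sec61b) that library was the highest of the 6. For Derl1 the margin was small (97.1 CPM, against 96.5 CPM in KO-labelled replicate 2). Among all tested genes KO-labelled replicate 1 was highest in 14.4%. None of the 7 was called, and how many of all such genes were called was not counted. This split was noticed after the values were seen. Per kilobase of annotated exon, Calr was the most abundant of the 32 in WT (362 CPM per kb), followed by Hsp90b1 (291) and Hspa5 (236); in KO-labelled cells Calr stood at 561 and Hspa5 at 462 CPM per kb, above Hsp90b1 at 419.

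In lists of other ER genes the test called a smaller share than among the genes above. Of 97 such genes with a row, 95 could be tested. Of these 95, 6 were called higher and none lower, against 2.99% and 1.54% of all tested genes. Their median log2 fold change was 0.11, against -0.01 over all tested genes. At an unadjusted edgeR p below 0.05, 29 were above WT and 4 below, against 16.9% and 12.6%. DESeq2 called 23 higher and 3 lower, against 11.8% and 7.1%. In each of these counts the share above WT was larger than among all tested genes, and the share below was smaller. Among 20 folding enzymes and cochaperones the prolyl isomerase genes Fkbp14 (5.38 to 7.68 CPM in WT, 13.0 to 14.9 CPM in KO-labelled cells; 1.13, SE 0.16) and Fkbp11 (20.5 to 21.6 and 28.0 to 31.4 CPM; 0.53, SE 0.09) rose. Among 22 genes of translocation, signal peptide cleavage and N-glycosylation, the signal peptidase subunit gene Sec11c (0.39, SE 0.07) and the oligosaccharyltransferase subunit gene Ddost (0.39, SE 0.08) rose. Wfs1 (0.60, SE 0.10), which encodes the ER membrane protein wolframin, rose among 16 tested genes of stress signalling and the PERK branch, and Kdelr2 (0.41, SE 0.09), a receptor that returns ER proteins from the Golgi, among 19 genes of export and retrieval. None of 18 other degradation genes was called by edgeR, a number too small at the 2.99% of all tested genes to set them apart. DESeq2 called 2 of them higher and 2 lower, against 11.8% and 7.1% of all tested genes. Of the genes known to act downstream of PERK on that list, none was called by edgeR. Atf4 measured 408, 376 and 381 CPM in WT and 431, 343 and 350 CPM in KO-labelled cells. Its target Ddit3 (CHOP) measured 267, 140 and 144 CPM and 211, 256 and 229 CPM, and Trib3 276, 196 and 199 CPM and 239, 127 and 132 CPM. In both of these genes WT replicate 1 stood apart from the other WT libraries. Trib3 was called lower without KO-labelled replicate 1 (-0.78, edgeR adjusted p = 0.00667), and without WT replicate 1 the fold change of Ddit3 was 0.70 (edgeR adjusted p = 0.0521). Chac1, a target of the same branch named here after its values were seen, measured 35.4, 15.9 and 16.0 CPM in WT and 61.6, 35.1 and 38.5 CPM in KO-labelled cells (1.01, SE 0.36, edgeR adjusted p = 0.118) and was called higher by DESeq2, as were Nfe2l2 and Mbtps1. All 6 calls were lost when WT replicate 2, WT replicate 3, KO-labelled replicate 2 or KO-labelled replicate 3 was left out, and 1 was made when WT replicate 1 was. Leaving out KO-labelled replicate 1 gave 36 genes higher and 9 lower, beside the 19.3% and 16.1% of all genes tested in that fit.

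Promoters of ER chaperone genes are known for the ER stress element (ERSE), a site for ATF6 with the factor NF-Y, and the sequences are shown because the called genes include several with this element. It was searched as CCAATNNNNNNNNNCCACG on both strands, so that on the other strand it reads from CGTGG to ATTGG. RefSeq promoter windows (GRCm38.p6, 250 bases before to 50 bases after the start) were found for 27 of the 32 genes, and 9 of the 27 (33.3%) held the element. It was in 39 of all 32851 windows (0.119%), in 0.193% of the 11380 tested genes with a window and in 1 of 77 other ER genes. The larger share among the 32 was likely beforehand, since ER chaperone promoters are known for the element, and is no result of these data. Among the 32, the element was in 4 of 7 called genes with a window and in 5 of 20 that were not called, a difference that was not tested. Over all genes called higher it was in 5 of 440 with a window (1.14%), and these 5 include the 4. In the called genes it lay as follows, in capitals the parts CCAAT and CCACG or their complements, each run read 5′ to 3′ on the strand of its gene.
Hspa5, chr2:34772019-34772049, plus strand: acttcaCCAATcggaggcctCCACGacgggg
Calr, chr8:84847069-84847099, minus strand: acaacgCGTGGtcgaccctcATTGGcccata
Creld2, chr15:88819514-88819544, plus strand: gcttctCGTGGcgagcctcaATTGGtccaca
Hsp90b1, chr10:86705527-86705662, minus strand: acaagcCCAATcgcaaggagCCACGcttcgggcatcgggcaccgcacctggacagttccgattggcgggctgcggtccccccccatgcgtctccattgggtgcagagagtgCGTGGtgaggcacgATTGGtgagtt

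The element began 65 bases before the RefSeq start in Hspa5, 162 in Calr and 126 in Creld2, and Hsp90b1 had 2, at 212 and 107 bases. The span of Hspa5 given earlier, from GENCODE, begins further upstream, at 34771970, so the element of Hspa5 lies inside that span. In genes that were not called it was found in Pdia6, Dnajc3, Canx, Syvn1 and Derl3, shown here for comparison.
Pdia6, chr12:17266485-17266515, plus strand: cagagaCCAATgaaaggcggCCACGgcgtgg
Dnajc3, chr14:118937821-118937851, plus strand: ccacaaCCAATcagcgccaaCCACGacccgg
Canx, chr11:50325794-50325824, minus strand: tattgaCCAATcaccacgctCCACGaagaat
Syvn1, chr19:6046526-6046556, plus strand: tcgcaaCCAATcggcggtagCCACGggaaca
Derl3, chr10:75893236-75893266, plus strand: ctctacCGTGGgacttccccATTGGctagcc

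A match in these letters is a description and not a site of binding. Genes with the element ranged in log2 fold change from Hspa5 (0.97) to Canx (-0.06) and, near the detection limit, Derl3 (-0.72). The related element ERSE-II, searched on both strands as ATTGG and CCACG with 1 base between them, was in the windows of Dnajb11 and Herpud1 and in 0.0365% of all windows. The core TGACGTGG, bound by XBP1 in other systems, was in the windows of Sec24d and Txndc5 and in 0.676% of all windows. CCAAT alone, part of the first element and, as ATTGG, of ERSE-II, was in 22 of the 27 genes and in 37.4% of all windows.

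**Figure D4:**
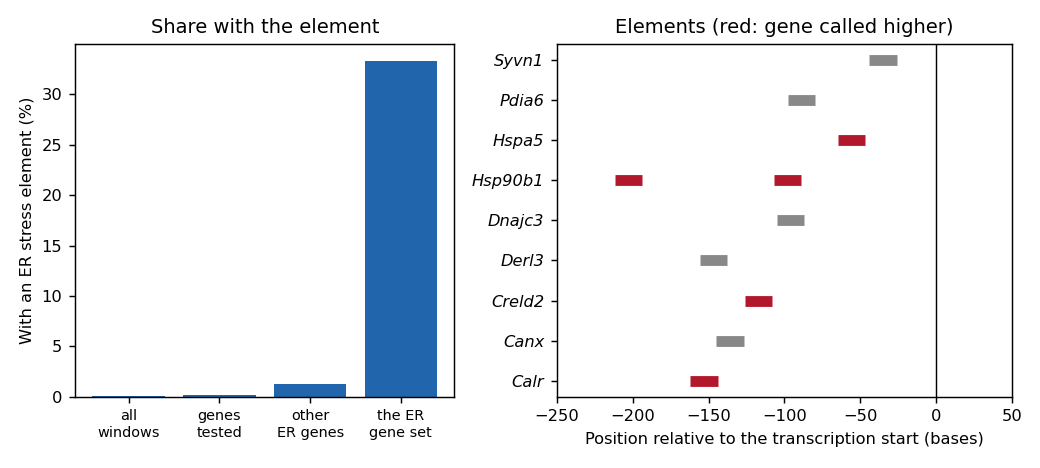
Left, share (%, y axis from 0) with the ER stress element in all 32851 windows, in tested genes, in other ER genes and in the 27 of the 32 genes with a window. Right, position of each element relative to the RefSeq transcription start (bases, x axis) in the 9 genes that hold it, red where the gene was called higher. All lie within 212 bases before that start.

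The m6A peak lists asked which of these transcripts carry the mark and whether it differs between the genotypes. Each list is 1 per group with no replicate, and the score deposited with each peak, read here as a p-value from its range, is the authors' own. In both the WT and the KO-labelled list 27 of the 32 genes had a peak, the same 27 genes, with 55 peaks in WT and 58 in KO-labelled cells. Among all tested genes 48.7% had a WT peak. Among the 7132 tested genes at 30 CPM or more in WT 78.1% had one, against 26 of the 30 ER genes at that level. The genes without m6A peaks were Pdia6, Edem1, Sec24d, Sec61b and Derl3. All 10 called genes had a peak in both lists, as did 73.9% (WT list) of all genes called higher.

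Most peaks of these genes were in both lists. Of the 55 WT peaks 50 shared at least 1 exonic base with a KO-labelled peak, and of the 58 KO-labelled peaks 51 with a WT peak. Overlaps were not counted over all peaks of the lists, so it is not known whether these genes differ from others. The 5 WT peaks without a counterpart lay in Atf6 (2), Derl2, Ern1 and Sel1l. The 7 KO-labelled peaks without one lay in Hyou1 (2), P4hb (2, which overlap each other), Atf6, Ssr1 and Xbp1. Hyou1 had 2 peaks in WT and 5 in KO-labelled cells, where its RNA was also higher, and whether its level moved the peak number was not tested. Of 50 WT peaks that could be placed on the coding transcript, 30 were centred in coding sequence and 19 in the 3′ UTR. Within 200 bases of the end of the coding sequence lay 19 of 50 (38.0%, 95% exact binomial interval 24.7 to 52.8, counting error only), against 25.7% of all placed WT peaks, which is inside that interval. The interval treats peaks as independent, although some share a gene and the WT peaks of P4hb near its stop codon overlap each other. The main peak of Hspa5 spanned 841 bases around the stop codon (chr2:34775598-34776438) in WT and 781 bases in KO-labelled cells, both with a deposited score of 0.

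**Figure D5:**
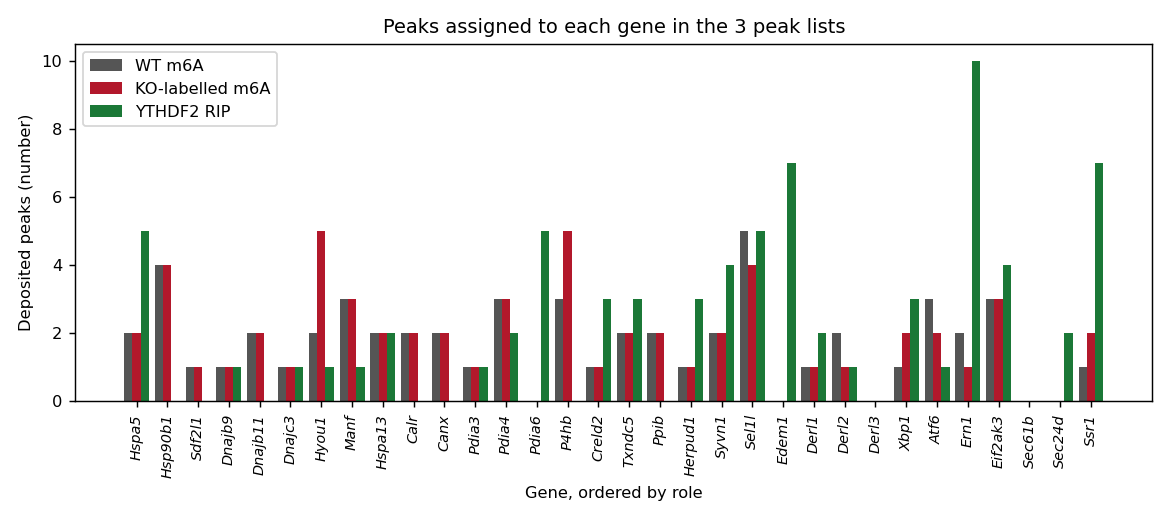
Number of deposited peaks (y axis) assigned to each of the 32 genes in the WT m6A, KO-labelled m6A and YTHDF2 RIP lists, with genes ordered by role. Ern1 has 10 RIP peaks and Edem1 and Ssr1 have 7 each, while Hsp90b1, Calr, Sdf2l1 and Dnajb11 have m6A peaks and no RIP peak.

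YTHDF2 RIP peaks were listed for 23 of the 32 genes, 74 peaks in all, against 34.3% of tested genes and 51.5% of those at 30 CPM or more. Of the 10 genes called higher, 6 had a RIP peak (Hspa5 5, Creld2 3, Pdia4 2, Hspa13 2, Hyou1 1 and Manf 1) and 4 had none (Hsp90b1, Calr, Sdf2l1 and Dnajb11). Of the 22 genes not called, 17 had one, with most peaks in Ern1 (10), Edem1 and Ssr1 (7 each), and Pdia6 and Sel1l (5 each). Over all genes called higher 56.9% had a RIP peak, over those called lower 35.8% and over those not called 33.5%. These classes were not matched for level, and no relation between RIP peaks and calls was tested. The RIP peak of Manf lay in exons outside the coding transcript used and had a weak deposited score (0.00065). Edem1, Pdia6 and Sec24d had RIP peaks and no WT m6A peak. Of the 55 WT m6A peaks 21 shared an exonic base with a RIP peak, in 14 genes, and 53 of the 74 RIP peaks shared none with a WT m6A peak. These overlaps too were counted for the 32 genes only, without a share over all peaks beside them. The RIP peaks with most exonic bases were in Sel1l, where a RIP peak covered 4368 exonic bases in the 3′ part of the transcript, and in Eif2ak3, with 2190 bases over 10 blocks.

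GGACT, the best known form of the m6A consensus, was in 11 of 38 WT peaks of these genes that lay wholly in the transcript used (28.9%) and in 37.3% of all such WT peaks. The shorter GGAC, which GGACT contains, was in 28 of 38 (73.7%) and in 70.5% of all. Sites are shown for genes the results turn on, with GGACT in capitals, read 5′ to 3′ on the transcript strand. Distances are from the last coding base to the A of the motif, and negative values lie inside the coding sequence.
Hspa5, 44 bases, chr2:34776140-34776169, plus strand: attgtaaatactGGACTcaggaactttcgt
Calr, 32 bases, chr8:84842603-84842632, minus strand: gccttcagggctGGACTgaggcctgaacac
Eif2ak3, 69 bases, chr6:70904340-70904369, plus strand: ctccacagcggtGGACTcagattttatgct
Dnajb9, -56 bases, chr12:44206998-44207027, minus strand: gcaagcactgcaGGACTgtcactcaacgaa
Herpud1, 87 bases, chr8:94394825-94394854, plus strand: ctcccctggcgtGGACTcgacagagtcatt

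All of these lie in a WT m6A peak, and all but the site of Herpud1 also lie wholly in a KO-labelled m6A peak. The sites of Hspa5, Eif2ak3, Dnajb9 and Herpud1 were also inside a RIP peak and that of Calr was not. Calr, without RIP overlap at the site, was called higher, as was Hspa5 with it; Eif2ak3, Dnajb9 and Herpud1, with it, were not called. These sites were picked for display, and no relation was tested. Of the GGACT sites found but not shown, those of Hspa13 (called higher), Derl1 and Syvn1 (not called) were outside RIP peaks. Those of Sel1l and the further sites of Eif2ak3 (not called) were inside RIP peaks.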

How the data were processed

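The authors deposited a gene table of whole-number values (6 input libraries), assumed here to be raw counts, and 3 peak lists. The deposited peak score, at most 0.003, was taken to be a p-value because of its range. Per the submitters' processing notes, HISAT2, HOMER, ChIPseeker and mm10 were used. The sources used here do not state the counter, strand setting, annotation or peak caller. The files hold 0 columns of other samples and 0 rows without a gene. Counts were tested with edgeR 4.0.16 (quasi-likelihood F test, TMM, filterByExpr, no covariate, Benjamini-Hochberg over 18969 genes; SE is the log2 fold change over the square root of F) in R 4.3.3. DESeq2 1.42.0, other scalings, no filter, a replicate block and leaving out each library were tried. Gene models, transcripts and positions came from GENCODE release M21, matched without ID versions for all 32 genes, and promoters from RefSeq (GRCm38.p6). Peaks were placed on the transcript with the longest coding sequence; same-strand overlaps of at least 1 exonic base counted. No 2 libraries agreed within sampling noise (lowest chi-square per degree of freedom 6.45 over 15 pairs). The edgeR step was tested on simulated counts. Members, lists and tests were chosen with earlier results of these data known. All 32 genes were named; of the other ER genes, the 3 called genes with the largest change per list and Atf4, Ddit3 and Trib3. A site in 1 of the genes is not reported here.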

Additional observations from a re-analysis of the deposited data

How the results depend on the processing

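With 3 libraries a group, calls depend on the spread between libraries. Leaving out 1 library gave 0 to 17 of the 32 genes higher and 0 lower, a median log2 fold change of 0.24 to 0.38, 0 to 36 other ER genes higher and 0 to 9 lower, and 0 to 3782 genes of the whole table higher and 0 to 3144 lower. Scaling by RLE size factors kept the 10 calls, and library size alone kept 9 of them (without Hsp90b1). DESeq2 called 15 of the 32 higher, 23 other ER genes higher and 3 lower, and 2244 genes higher and 1346 lower in all, against 568 and 293 by edgeR. With no low-count filter 5 of the 32 remained (Hspa5, Sdf2l1, Creld2, Manf and Hspa13), 0 other ER genes were higher (29 at an unadjusted edgeR p below 0.05, 23 by DESeq2), and 70 genes were higher and 41 lower. With the replicate block, which rests on a shared number only (deviations of same-numbered libraries correlated at 0.049, 0.115 and 0.050), 2 of the 32 were called (Hspa5 and Sdf2l1), 0 other ER genes, and 45 genes higher and 26 lower. The cause of these differences was not tested. Fold changes near 0 changed sign when 1 library was left out: Xbp1 (-0.0074 to 0.086), Syvn1 (-0.163 to 0.071), Ppib (-0.046 to 0.0014), Derl1 (-0.032 to 0.019), Derl2 (-0.132 to 0.027), Atf4 (-0.165 to 0.0093) and Ythdf2 (-0.036 to 0.136). With peaks at a score of at most 0.00001, 27, 27 and 21 of the 32 genes had a WT m6A, KO-labelled m6A and RIP peak, and 48 of 55 WT peaks were shared at an overlap of at least 50%.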
